A study of Mus musculus with 4 samples.

Results

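The genes of the NF-κB transcription factor and of its feedback inhibitors were examined in LSK cells. These are the fetal liver fraction without lineage antigens but with Sca-1 and c-Kit, which holds the hematopoietic stem cells. The 10 members were taken by gene symbol, and all 10 were found among the 39186 genes of the deposited table. They were 5 subunits (*Nfkb1*, *Nfkb2*, *Rel*, *Rela* and *Relb*) and 5 inhibitors or regulators (*Nfkbia*, *Nfkbie*, *Nfkbiz*, *Tnfaip3* and *Bcl3*). The study compared 2 *Pich*-KO with 2 *Pich*-WT samples of sorted fetal liver LSK cells from mid-gestation C57BL/6 embryos. The *Pich*-KO line carries a small TALEN-made deletion in the second exon of the X-linked *Pich* gene in every cell of the animal, without a Cre transgene, and the *Pich*-WT embryos carry the intact gene. Neither the labels nor the methods say whether a sample was 1 embryo or a pool, so the p-values measure the spread between these samples.

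NF-κB is a dimer of Rel-family proteins that is held in the cytoplasm by IκB proteins. Once the IκB kinase complex marks IκB for destruction, the dimer enters the nucleus, where it switches on genes of inflammation and survival, among them the genes of its own inhibitors. Those inhibitors then end the signal. In blood stem and progenitor cells the pathway is known to respond to inflammatory cytokines and to take part in lineage choice, and in macrophages it is a main driver of cytokine genes.

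The sequence around the start sites of the members was searched for the letters that the factor recognizes. RefSeq promoter windows on GRCm38.p6, 250 bases before to 50 after each start site, were present for 7 of the 10 members. The κB consensus, to which NF-κB binds, was searched by its letters on both strands. It was present in a window of 6 of these 7 members (*Nfkb2*, *Rel*, *Nfkbia*, *Nfkbie*, *Tnfaip3* and *Bcl3*), and *Rela* was the one without. Of the 27025 genes with a window, 9.55% held it. *Rel*, the member that rose, and *Nfkbia*, the most abundant inhibitor, are shown up to the start site, with the κB consensus in capitals, followed by shorter stretches of the other 4. Matches that overlap on the 2 strands are drawn as 1 run of capitals.
*Rel*, chr11:23770970-23771219, minus strand: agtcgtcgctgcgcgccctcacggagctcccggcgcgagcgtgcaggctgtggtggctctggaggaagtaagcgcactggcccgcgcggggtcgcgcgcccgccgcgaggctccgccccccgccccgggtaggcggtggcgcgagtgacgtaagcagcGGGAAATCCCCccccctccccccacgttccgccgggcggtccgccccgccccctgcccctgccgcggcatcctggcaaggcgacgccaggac
*Nfkbia*, chr12:55492648-55492897, minus strand: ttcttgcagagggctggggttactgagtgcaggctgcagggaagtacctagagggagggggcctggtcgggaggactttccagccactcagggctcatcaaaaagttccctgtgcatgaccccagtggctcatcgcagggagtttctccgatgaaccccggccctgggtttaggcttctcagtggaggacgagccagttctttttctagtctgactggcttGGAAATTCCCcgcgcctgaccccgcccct
*Nfkb2*, chr19:46304683-46304750, plus strand: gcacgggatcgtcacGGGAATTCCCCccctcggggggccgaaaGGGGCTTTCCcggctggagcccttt
*Nfkbie*, chr17:45555579-45555618, plus strand: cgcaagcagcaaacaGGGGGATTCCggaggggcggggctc
*Tnfaip3*, chr10:19015398-19015550, minus strand: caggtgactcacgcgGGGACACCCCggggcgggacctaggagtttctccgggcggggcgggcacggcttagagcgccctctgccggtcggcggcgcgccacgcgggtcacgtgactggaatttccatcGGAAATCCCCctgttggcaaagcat
*Bcl3*, chr7:19822736-19822768, minus strand: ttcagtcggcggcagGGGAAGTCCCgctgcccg

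In *Rel* the match began 92 bases before the start site, in *Nfkbia* 29 bases before it and in *Nfkbie* 106 bases before it. *Nfkb2* held 2 matches in the stretch shown, 39 and 11 bases before the start site, and *Tnfaip3* also held 2, at 125 and 12 bases. In *Bcl3* the match lay just after the start site. The letters of the interferon-stimulated response element core, GAAANNGAAA, were in the windows of 0 of the 7 members and of 3.99% of all genes. Those of the gamma-activated site, TTCNNNGAA, were in 1 of the 7, *Nfkb2*, against 9.55% of all genes. These matches describe letters in a window and not occupied sites. The member that rose and 5 of the members that fell shared the κB consensus.

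The 4 libraries held between 14703215 and 20933919 gene reads, and the lowest read count of a member in any sample was 82, for *Relb* in *Pich*-KO sample 2. *Pich* itself, listed as *Ercc6l*, was at 1142 and 1232 normalized counts in *Pich*-KO against 772 and 661 in *Pich*-WT. It does not check the genotype, because the small deletion leaves the transcript countable. *Pich*-WT sample 2 alone had 0 reads on the Y-linked *Eif2s3y*, *Uty*, *Ddx3y* and *Kdm5d*. The other libraries had reads on each of them. The groups were thus not balanced in Y-linked reads, and the part of embryo sex in the results was not tested. Of 13 LSK gate and stem cell genes 1, *Ly6a*, which encodes Sca-1, was higher in *Pich*-KO (3586 and 2978 against 901 and 1061) and 6 were lower, while *Kit* did not pass the test (4447 and 2773 against 2328 and 2513). The 6 lower genes were *Hlf*, *Mecom*, *Gata2*, *Slamf1*, *Procr* and *Mllt3*. *Procr* was lower by the most (76.3 and 38.6 against 362 and 460). In this list 11 of the 13 log2 fold changes were negative, with a median of −0.58. Markers of several other cell types differed between the groups. For scale, the limma test described below called 7.58% of all genes tested higher and 9.60% lower. Among genes with a mean of 50 or more normalized counts these shares were 19.5% and 22.6%. All 15 macrophage markers were lower in *Pich*-KO, with a summed normalized count of 12922 to 13828 against 77463 to 77926. The *Pich*-WT libraries had 6617 and 6927 normalized counts of *Adgre1*, the F4/80 macrophage antigen, which is not among the lineage antigens listed for the sort. All 8 endothelial markers were also lower (3739 to 5407 against 28495 to 41003), as were 8 of 10 erythroid (32081 to 35538 against 136290 to 178251), 3 of 8 megakaryocyte (1295 to 1322 against 3186 to 5366), 5 of 8 hepatoblast (2554 to 3037 against 4258 to 4788) and 3 of 12 B, T and NK cell markers (1721 to 2507 against 2784 to 2897). Of the 11 neutrophil markers 2, *Mpo* and *Prtn3*, were higher, while the groups overlapped in the other 9 and the median log2 fold change of the list was −0.16. Their sum, 63625 to 118217 against 16491 to 19116, was mostly *Mpo* (54647 and 90492 against 10351 and 12533), a gene that progenitors of neutrophils also express. The 3 lower of 12 B, T and NK cell markers were *Cd4*, *Klrb1c* and *Gzma*, each with a mean of 50 or more. Several of the others had a mean under 50, so the 22.6% is not a like share for this list. No macrophage, endothelial or erythroid marker was at 0 reads in both *Pich*-KO samples. The sort stained for CD4, CD8, Gr-1, B220 and Ter119 to leave out T, B, neutrophil and erythroid cells. NF-κB genes are also used by several of the marked cell types, and the part of these markers in the results was not tested. In bulk RNA, fewer cells of a type and less RNA per cell cannot be told apart.

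**Figure D1:**
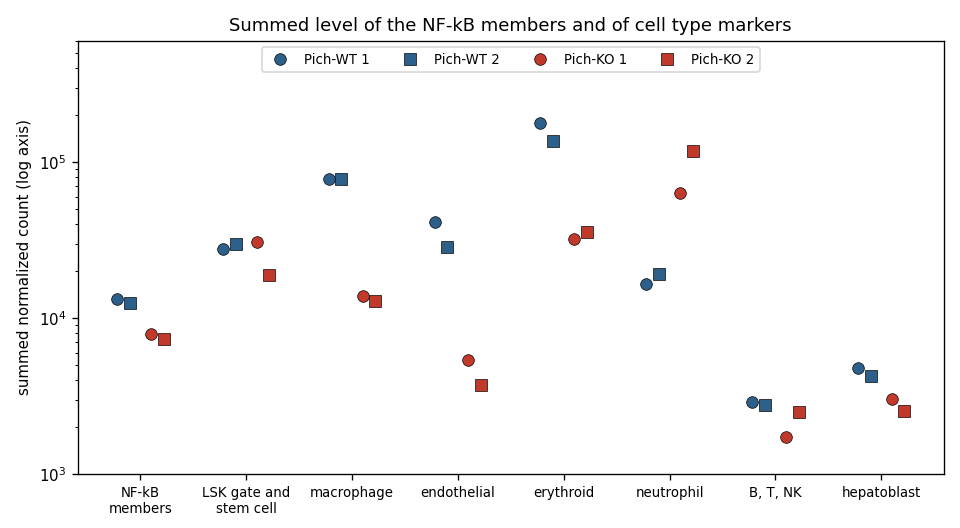
Summed normalized count, on a log axis, of the 10 NF-κB members and of 7 fixed cell type marker lists in each library, with *Pich*-WT in blue, *Pich*-KO in red, circles for sample 1 and squares for sample 2. The members sum to 12497 and 13343 in *Pich*-WT and to 7342 and 7923 in *Pich*-KO, and the macrophage, endothelial and erythroid lists are lower in *Pich*-KO by more.

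Among the subunits, *Rel* was higher and the other 4 were lower in the bulk RNA of the *Pich*-KO samples than in that of *Pich*-WT. Normalized counts are reads divided by a size factor that the authors set for each library. They were compared by limma on log2(normalized count + 1) over 32428 genes, with Benjamini-Hochberg adjustment of the p-values, and a gene with an adjusted p under 0.05 was called higher or lower. Over all genes tested, 7.58% were called higher and 9.60% lower, 17.2% in either direction. *Rel* (ENSMUSG00000020275, chr11:23736847-23770970, minus strand, GRCm38 as for all members) encodes c-Rel, the subunit best known for lymphocyte activation. It was at 411 and 425 normalized counts in *Pich*-KO against 259 and 262 in *Pich*-WT, so the groups lay apart and both *Pich*-KO samples were the higher. The difference was 0.68 on the log2 scale (SE 0.17, limma adjusted p = 0.0261), or 1.61-fold.

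*Rela* (ENSMUSG00000024927, chr19:5637483-5648130, plus strand) encodes p65, the main activating subunit of the canonical pathway, and it was the most abundant subunit. It had 1991 and 1734 normalized counts in *Pich*-KO against 2945 and 2895 in *Pich*-WT. Both *Pich*-KO samples were below both *Pich*-WT samples, by 0.65 on the log2 scale in the fit (log2 fold change −0.65, SE 0.11, limma adjusted p = 0.00511). *Nfkb1* (ENSMUSG00000028163, chr3:135584655-135691547, minus strand) encodes the precursor of the subunit that pairs with RelA. Its samples stood at 1060 and 1070 in *Pich*-KO, a mean of 1065 ± 6.72 (SD, n = 2), and at 1538 and 1583 in *Pich*-WT, a mean of 1561 ± 31.8 (SD, n = 2). It fell by 0.55 on the log2 scale (SE 0.11, limma adjusted p = 0.0129), with almost no spread within *Pich*-KO.

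The noncanonical pathway runs through *Relb* and *Nfkb2*, whose products form its dimer. *Relb* (ENSMUSG00000002983, chr7:19606217-19629438, minus strand) was the subunit that fell most, from 254 and 260 normalized counts in *Pich*-WT to 140 and 93.2 in *Pich*-KO. It fell by 1.16 on the log2 scale (SE 0.25, limma adjusted p = 0.0149), and the *Pich*-KO samples differed from each other more than the *Pich*-WT samples did. *Nfkb2* (ENSMUSG00000025225, chr19:46304737-46312090, plus strand) was at 421 and 373 in *Pich*-KO against 613 and 564 in *Pich*-WT. Its groups did not overlap, and it fell by 0.57 on the log2 scale (SE 0.16, limma adjusted p = 0.0437), but the adjusted p was 0.055 when 0.1 was added to each value in place of 1 and 0.0684 when no low gene was removed (limma). Some exons of *Nfkb2* lie opposite exons of *Psd*, which had at most 139 reads in a sample, and as the library kit does not mark strand their reads there cannot be told apart.

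All 5 inhibitors were lower in both *Pich*-KO samples, and 4 of them passed the test. *Nfkbia* (ENSMUSG00000021025, chr12:55489410-55492647, minus strand) encodes IκBα, the inhibitor that NF-κB makes anew to end its own activation. It had 1736 and 1483 normalized counts in *Pich*-KO against 3829 and 3635 in *Pich*-WT. It fell by 1.22 on the log2 scale (SE 0.11, limma adjusted p = 0.000337), and the *Pich*-WT mean was 2.32 times the *Pich*-KO mean. *Nfkbie* (ENSMUSG00000023947, chr17:45555703-45563169, plus strand), which encodes IκBε, a slower feedback inhibitor, was at 278 and 198 against 536 and 491. The groups lay apart, by 1.13 on the log2 scale in the fit (log2 fold change −1.13, SE 0.21, limma adjusted p = 0.00758).

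*Tnfaip3* (ENSMUSG00000019850, chr10:19000910-19015657, minus strand) encodes a ubiquitin-editing enzyme that takes apart the signalling complexes upstream of the IκB kinases. It was at 730 and 635 in *Pich*-KO against 1225 and 1178 in *Pich*-WT, with little spread in either group. It fell by 0.82 on the log2 scale (SE 0.14, limma adjusted p = 0.00463). *Bcl3* and *Nfkbiz* encode nuclear IκB proteins, which act on DNA-bound NF-κB and can raise as well as lower the expression of target genes. *Bcl3* (ENSMUSG00000053175, chr7:19808462-19822770, minus strand) was at 156 and 203 against 339 and 317, and its groups did not overlap. It fell by 0.88 on the log2 scale (SE 0.21, limma adjusted p = 0.0229), with an adjusted p of 0.0502 when no low gene was removed (limma).

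*Nfkbiz* (ENSMUSG00000035356, chr16:55811375-55838899, minus strand) was the one member that did not pass. It was at 1000.2 and 1128 normalized counts in *Pich*-KO against 1804 and 1312 in *Pich*-WT, so the groups did not overlap but the *Pich*-WT samples stood far apart. The log2 fold change was −0.53 (95% interval −0.92 to −0.14, limma adjusted p = 0.0699). It was −0.30 without *Pich*-WT sample 1 and −0.76 without *Pich*-WT sample 2. The gene passed with edgeR's quasi-likelihood test and TMM scaling on the recovered reads (adjusted p = 0.0432) and with DESeq2 (adjusted p = 0.0177).

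**Figure D2:**
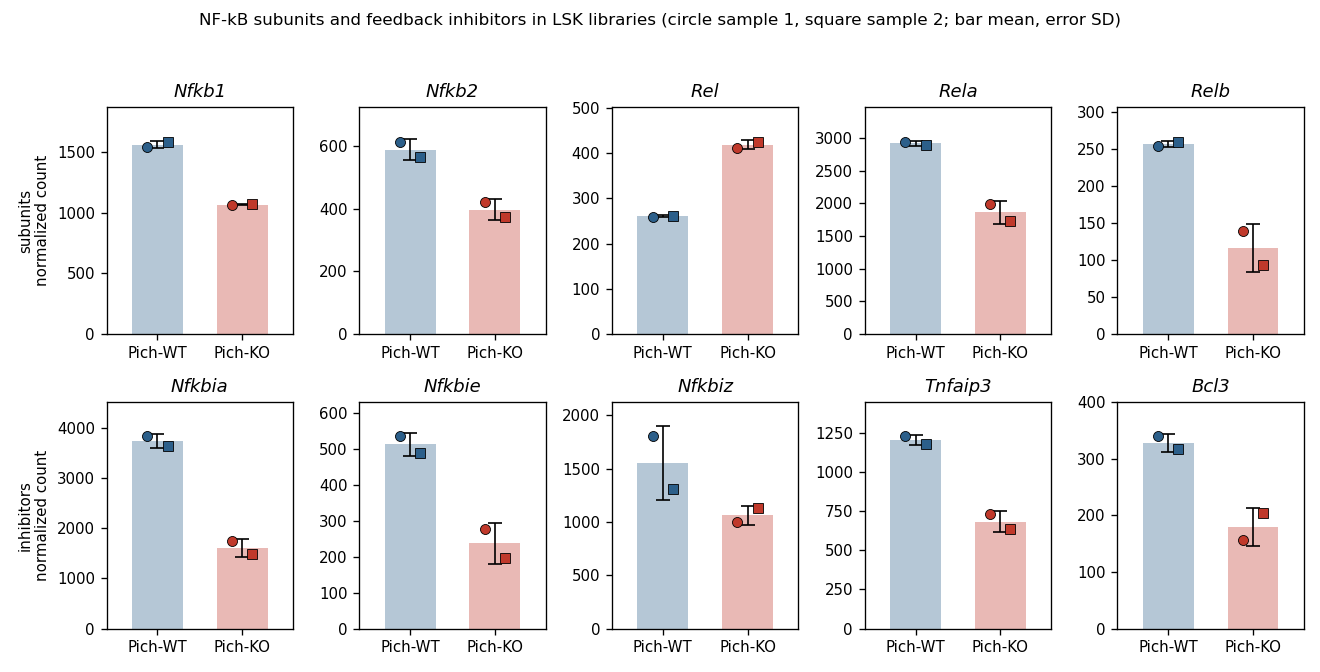
Normalized counts of the 5 subunits in the upper row and the 5 inhibitors in the lower row, with each axis from 0, circles for sample 1, squares for sample 2, bars for the mean and error bars for the SD of 2 samples. *Rel* is the gene with *Pich*-KO above *Pich*-WT, and in each of the other 9 both *Pich*-KO samples are below both *Pich*-WT samples.

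Of the 10 members, 1 was called higher and 8 lower by limma, 9 in either direction, against 7.58%, 9.60% and 17.2% of all genes tested. Where the mean was 50 normalized counts or more, a range of 11794 genes that holds all members, 19.5% were higher and 22.6% lower. The median log2 fold change of the members was −0.74, beside 0.02 over all genes tested. *Pich*-KO and *Pich*-WT samples were apart in 10 of the 10 members, 1 upward and 9 downward, while over all genes they did not overlap in 28.9% upward and 27.2% downward, 56.1% together. For a single gene, 2 samples against 2 cannot give an exact two-sided permutation p below 0.333, so the calls draw on the variance that limma pools over genes. Without a trend of that variance on expression, 0 members passed by limma and 7 had an unadjusted p under 0.05, and with any one sample left out 0 passed, at adjusted p-values of 0.0683 to 0.394 and with 5 to 9 members at an unadjusted p under 0.05. No member changed direction in any of the 12 alternatives. With the groups apart in every member, leaving out a sample could not reverse a direction. A changed filter, variance trend or replicate block left the fold changes as they were, so these alternatives do not test direction.

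**Figure D3:**
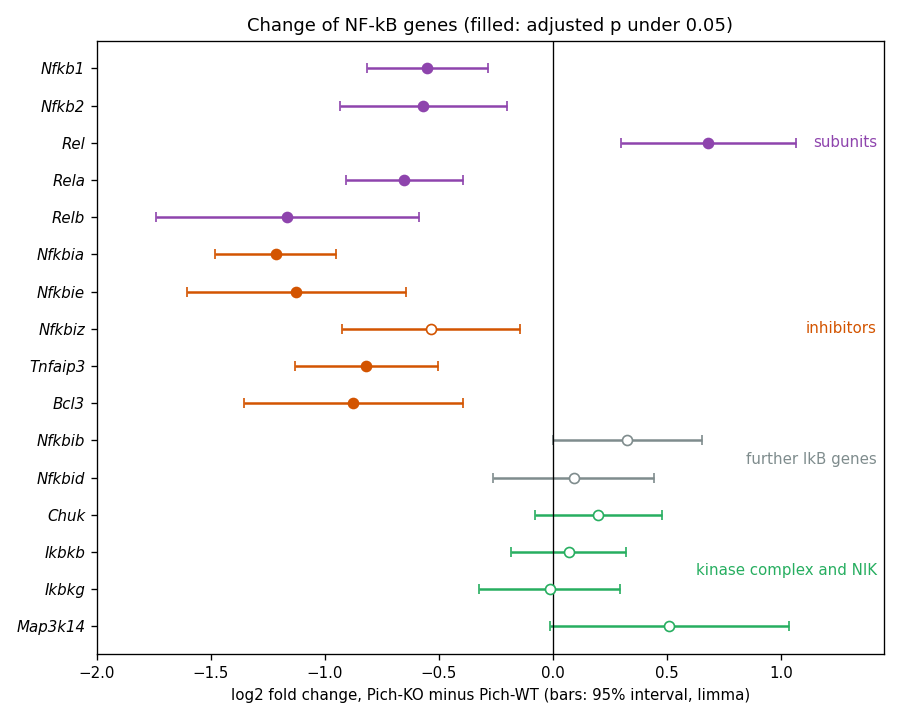
Log2 fold change of *Pich*-KO over *Pich*-WT with its 95% interval from limma, for the 10 members, the further IκB genes *Nfkbib* and *Nfkbid*, and the kinase genes. Filled points passed the test. *Rel* lies at 0.68, the other members lie between −1.22 and −0.53, and the further IκB and kinase genes have intervals that include 0.

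The make-up of the subunit pool was compared within each library, where size factors cancel. Per kilobase of the longest coding transcript in GENCODE M21, *Rel* made up 1.96% and 2.01% of the summed level of the 5 subunits in *Pich*-WT and 4.52% and 5.20% in *Pich*-KO. *Rela* made up 61.4% and 60.9% in *Pich*-WT against 60.2% and 58.3% in *Pich*-KO. The share of *Relb* was 6.51% and 6.73% against 5.19% and 3.86%. Thus *Rel* was the rarest subunit per kilobase in both *Pich*-WT samples, whereas in *Pich*-KO its level, 55.1 and 56.9 normalized counts per kilobase, lay within the range of *Relb*, at 63.2 and 42.2. With the listed gene lengths *Relb* was at 35.9 and 24.0 in *Pich*-KO, below *Rel*. The shares of *Nfkb1* and *Nfkb2* overlapped between the groups. With the gene lengths listed in the deposited table the share of *Rel* was 2.31% and 2.39% in *Pich*-WT against 5.30% and 6.18% in *Pich*-KO.

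The balance of inhibitors and subunits was taken as a ratio of normalized counts within a library. *Rel* over *Rela* was 0.207 and 0.245 in *Pich*-KO against 0.0878 and 0.0905 in *Pich*-WT. *Nfkbia* over *Rela* was 0.872 and 0.856 in *Pich*-KO against 1.30 and 1.26 in *Pich*-WT, so *Nfkbia* was lower in *Pich*-KO by more than *Rela* was. The ratio of *Nfkbie* to *Rela* was 0.140 and 0.114 against 0.182 and 0.170, and that of *Tnfaip3* to *Rela* was 0.367 and 0.367 against 0.416 and 0.407. For *Bcl3* over *Rela* the groups overlapped, at 0.0784 and 0.117 against 0.115 and 0.109. The 5 inhibitors together had 0.970 and 0.987 counts for each count of the 5 subunits in *Pich*-KO, against 1.38 and 1.25 in *Pich*-WT. That sum counts *Nfkbiz* and *Bcl3*, which can also raise target genes, and leaves out the IκB genes *Nfkbib* and *Nfkbid*. These shares and ratios are given as a description, with no test.

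**Figure D4:**
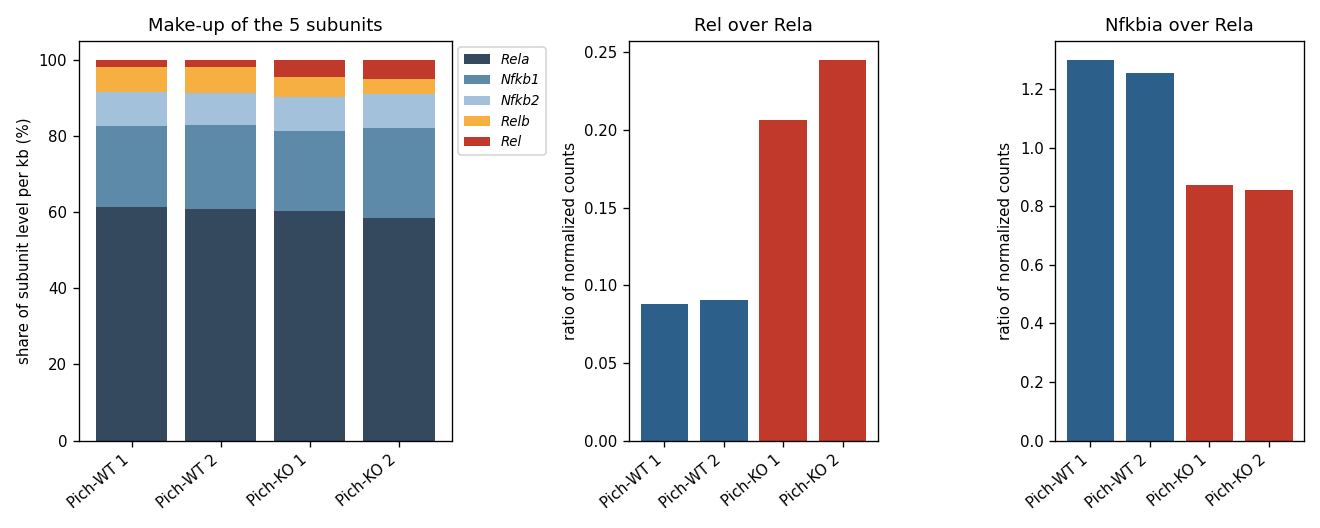
Share of each subunit in the summed subunit level per kilobase (left, in percent), and the ratio of normalized counts of *Rel* over *Rela* (middle) and *Nfkbia* over *Rela* (right), for each library, with *Pich*-WT bars in blue and *Pich*-KO bars in red in the ratio panels. The *Rel* segment grows from 1.96% and 2.01% to 4.52% and 5.20%, and *Nfkbia* over *Rela* is 1.30 and 1.26 in *Pich*-WT and 0.872 and 0.856 in *Pich*-KO.

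Ordered by level per kilobase of the longest coding transcript, *Nfkbia* stood first in both groups, with a mean of 2365 normalized counts per kilobase in *Pich*-WT and 1020.2 in *Pich*-KO, and *Rela* second, with 1075 and 686. *Nfkb1* and *Nfkbiz* followed at nearly one level, 379 and 379 in *Pich*-WT and 259 and 259 in *Pich*-KO, and their samples overlapped in both groups. *Tnfaip3* came next, with 272 in *Pich*-WT and 154 in *Pich*-KO. Below it in *Pich*-WT came *Nfkbie* (211), *Bcl3* (177), *Nfkb2* (153), *Relb* (116) and *Rel* (34.9), and these neighbours did not overlap between samples. In *Pich*-KO *Nfkb2* (103), *Nfkbie* (97.7) and *Bcl3* (97.1) overlapped one another, as did *Rel* (56.0) and *Relb* (52.7), the latter pair not with the listed gene lengths. With the listed gene lengths *Nfkb1*, whose listed length of 12061 bases is far above the 4117 bases of its longest coding transcript, dropped from the third place to the sixth in *Pich*-KO and the eighth in *Pich*-WT.

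The 3 genes of the IκB kinase complex, which releases NF-κB from its inhibitors, did not pass the test by limma, at adjusted p-values of 0.340 to 0.963. The kinase gene *Ikbkb* had 2102 and 2073 normalized counts in *Pich*-KO against 2104 and 1883 in *Pich*-WT (log2 fold change 0.07, 95% interval −0.18 to 0.32, limma). The interval was −0.08 to 0.48 for the second kinase gene *Chuk* and −0.32 to 0.29 for *Ikbkg*, the scaffold subunit. *Map3k14*, the kinase NIK of the noncanonical pathway, was 205 and 248 against 178 and 140, a log2 fold change of 0.51 (95% interval −0.01 to 1.03, adjusted p = 0.185, limma). Neither of the remaining IκB genes passed. *Nfkbib* was 1217 and 1206 against 1074 and 870 (adjusted p = 0.177, limma), and *Nfkbid* was 790 and 979 against 793 and 860 (adjusted p = 0.766, limma).

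In a list of 45 receptors, adaptors and kinases that lead to NF-κB, 8 were called higher and 9 lower by limma, with a median log2 fold change of −0.09 beside the 0.02 of all genes. The share called higher, 17.8%, and the 9 of 45 called lower were near the 19.5% and 22.6% of all genes with a mean of 50 or more, a range that holds all 45. *Traf3*, an adaptor that keeps NIK low, rose from 159 and 148 to 480 and 468 normalized counts (log2 fold change 1.62, adjusted p = 0.000669, limma). *Malt1*, the paracaspase that links antigen receptors to the pathway, rose with a log2 fold change of 1.34, and *Traf6*, the ubiquitin ligase below Toll-like and IL-1 receptors, with one of 1.21. Those that fell most were *Prkcb*, a protein kinase C gene (109 and 63.7 against 903 and 754), *Card10*, a scaffold gene (27.3 and 43.2 against 367 and 317), and *Tnfrsf11a*, the gene of the receptor RANK (25.1 and 15.9 against 97.7 and 76.0). Their log2 fold changes were −3.29, −3.28 and −2.05. The list had 16 genes lower once the replicate numbers entered the fit as a block, and 14 when genes under 10 counts in any sample were dropped.

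A list of 30 further inhibitors and regulators had 3 genes higher and 5 lower, with a median log2 fold change of −0.01. Of the 29 with a mean of 50 or more, 10.3% were higher and 17.2% lower, both below the 19.5% and 22.6% of all genes in that range. *Usp18*, an interferon-induced enzyme that removes ISG15, rose to 6690 and 3071 normalized counts from 230 and 245, and *Trim30a*, also raised by interferon, to 4464 and 3332 from 1162 and 1229. *Itch*, a ubiquitin ligase that works with *Tnfaip3*, rose with a log2 fold change of 1.05. *Rnf11*, another partner of *Tnfaip3*, fell from 1220 and 1087 to 340 and 193. *Otulin*, which trims linear ubiquitin, fell from 1032 and 972 to 386 and 111, and its *Pich*-KO samples lay far apart. *Pdlim2* fell with a log2 fold change of −0.96. When no low gene was removed, 1 gene of this list was called lower.

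Of the textbook NF-κB target genes, more were called lower than higher. Of 60 listed, 59 were tested, of which limma called 6 higher and 24 lower and left 29 uncalled, with a median log2 fold change of −0.77. Of the 47 with a mean of 50 or more, 10.6% were higher and 40.4% lower, against 19.5% and 22.6% of all genes in that range. In the fit over all samples the adhesion gene *Vcam1* fell most, from 3456 and 4128 normalized counts to 61.1 and 34.1 (log2 fold change −6.34, adjusted p = 1.7e-05, limma), followed by the cytokine gene *Il1a*, which fell from 321 and 479 to 30.5 and 2.27, and by *Cd83*, a gene of mature dendritic cells (log2 fold change −3.77). *Il1b* (43.6 and 21.6 against 258 and 115) and *Icam1* (1308 and 966 against 1957 and 1884) also fell. *Tnf* was 281 and 248 against 266 and 245, a log2 fold change of 0.05 (95% interval −0.38 to 0.48, limma).

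Among the targets called higher, *Ptgs2*, *Il6* and *Myc* rose most. *Ptgs2*, which encodes the inducible cyclooxygenase, reached 122 and 152 normalized counts from 9.38 and 25.0. *Il6* reached 28.4 and 73.9 from 10.2 and 13.0 (adjusted p = 0.0436, limma), and *Myc*, a growth regulator, 8316 and 9910 from 4226 and 3854. *Vcam1* is also a marker of fetal liver macrophages and endothelium, whose marker lists fell with median log2 fold changes of −4.84 and −4.15, and the part of those cells in the fall of these targets was not tested.

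**Figure D5:**
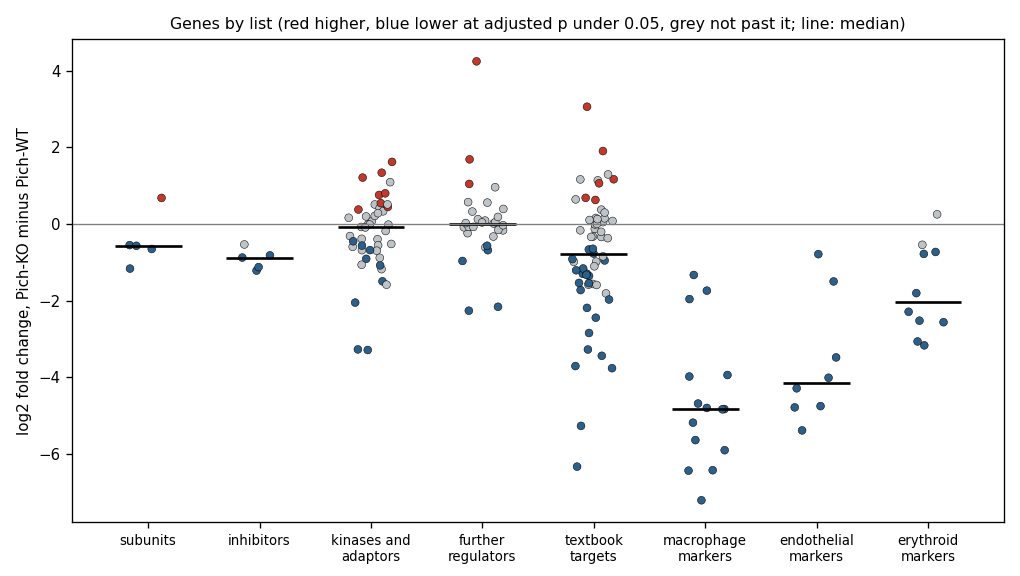
Log2 fold change of *Pich*-KO over *Pich*-WT for each tested gene of 8 lists, with a line at each median, red for genes called higher, blue for genes called lower (limma) and grey for the rest. Medians are −0.57 for the subunits, −0.88 for the inhibitors, −0.09 for kinases and adaptors, −0.01 for further regulators, −0.77 for targets, −4.84 for macrophage, −4.15 for endothelial and −2.05 for erythroid markers.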

How the data were processed

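RNA-seq covered sorted LSK cells, 2 samples per genotype. The authors deposited a signal, gene-level reads scaled by a size factor for each library. The submitters' processing notes name Bowtie 0.12.2 and the builds mm8 and mm9 with no role. Of 39131 genes found in GENCODE M21, 97.8% had its start and end, so the build was taken as GRCm38. The counter is not given in the sources used here. The authors' columns of fold changes and p-values were not used.

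limma 3.58.1 (R 4.3.3) was run on log2(value + 1) with a variance trend over 32428 genes (mean value 1 or more), two-sided, with Benjamini-Hochberg adjustment. Undoing the size factors gave whole reads for 100% of values (within 0.01 of a whole number), and edgeR 4.0.16 (TMM or upper-quartile scaling) and DESeq2 1.42.0 were run on them as alternatives. edgeR with TMM called 3097 genes higher and 3436 lower. The other alternatives were a pseudocount of 0.1, no filter, at least 10 counts in every sample, no trend, a replicate block, and each sample left out in turn. The main limma fit and edgeR with TMM were also run on counts simulated with the same dispersion for all genes. That simulation held no difference in cell types, its outcome is not given here, and no result rests on it. Counts of same-group libraries varied beyond sampling noise (chi-square over its degrees of freedom 17.7 in *Pich*-KO, 9.54 in *Pich*-WT), so none was treated as a repeat deposit of 1 library. This does not show that they came from separate animals.

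Members and lists were chosen with earlier results of these data known. Named genes were all members, the 3 highest and 3 lowest called genes of each list with a mean of at least 10, and a fixed set of kinase, IκB and target genes. Start and end matched GENCODE M21 for 9 of the 10 members. Protein sequences and the promoters of *Nfkb1*, *Relb* and *Nfkbiz* were not analysed here.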

Additional observations from a re-analysis of the deposited data

How the results depend on the processing

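Without the variance trend 0 genes passed in any list by limma, although 7377 genes had an unadjusted p under 0.05. The log2 fold changes were then the same, −0.55 for *Nfkb1*, −0.57 for *Nfkb2*, 0.68 for *Rel*, −0.65 for *Rela*, −1.16 for *Relb*, −1.22 for *Nfkbia*, −1.13 for *Nfkbie*, −0.82 for *Tnfaip3* and −0.88 for *Bcl3*, since the prior variance alone differed. Leaving out 1 sample leaves 1 residual degree of freedom, with the lone sample assumed to vary like the other group. Counts were then 0 to 0 in every list by limma, with 5 to 9 members at an unadjusted p under 0.05, so these fits bear on values only. The log2 fold changes ran from −0.57 to −0.53 for *Nfkb1*, −0.66 to −0.48 for *Nfkb2*, 0.66 to 0.71 for *Rel*, −0.75 to −0.55 for *Rela*, −1.45 to −0.88 for *Relb*, −1.33 to −1.10 for *Nfkbia*, −1.37 to −0.88 for *Nfkbie*, −0.76 to −0.30 for *Nfkbiz*, −0.92 to −0.72 for *Tnfaip3* and −1.07 to −0.69 for *Bcl3*. *Nfkb2* was not past the threshold with a pseudocount of 0.1 (−0.57) or without a filter on the mean (−0.57), nor *Bcl3* without that filter (−0.88). *Nfkbiz* passed with at least 10 counts in every sample (−0.53), with edgeR and TMM (−0.53) or upper-quartile scaling (−0.52) and with DESeq2 (−0.55). Counts moved over 1.5 times in 2 further lists: 14 kinases and adaptors were lower with at least 10 counts in every sample, 5 further regulators were higher with upper-quartile scaling and with DESeq2, and 1 was lower without a filter. The scalings moved the median of all genes by at most 0.0316. The causes were not tested.

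The replicate numbers are shared by the labels alone, and deviations from the group means were hardly related between samples of one number (correlation 0.0117, across 11800 genes and not across replicates). With the replicate block, *Nfkbiz* passed (−0.53, adjusted p = 0.00591, limma), 16 kinases and adaptors were lower and 5 further regulators higher, and over all genes 3122 were higher and 3874 lower.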

Other observations

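The κB consensus was also counted outside the members, as a description with no test. Of 46 textbook targets with a RefSeq promoter window, 17 held it, and 8 of these 17 were lower and 2 higher in *Pich*-KO by the same limma test. Among the 28 tested targets with a window that lacked it, 10 were lower and 3 higher. The median log2 fold change went the other way, at −0.65 for targets with the consensus and −0.81 for those without. Over all tested genes with a window, 18.1% of the 1901 with the consensus were lower and 10.2% higher. Of the 15634 without it, 12.8% were lower and 10.4% higher. The median log2 fold changes of these genes were −0.13 with the consensus and −0.02 without it.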
